A study of Mus musculus with 4 samples.

Results

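The actin isoforms are the 6 genes of the conventional actin family: Actc1 and Acta1 of striated muscle, Acta2 and Actg2 of smooth muscle, and the cytoplasmic Actb and Actg1. They were taken by symbol from a table of 36814 rows, in which each of the 6 had 1 row. The samples were RNA of mouse ventricles, taken at postnatal day 14 with the atria cut away and sequenced. The labels give 2 Hnrnpu mutants, in which a Ckmm-Cre transgene acted on a conditional Hnrnpu allele, and 2 wild type mice, and every animal was of the mixed C57BL/6 & 129 S4 background. Each group held 1 male and 1 female. The muscle creatine kinase promoter that drives this Cre is known to be active in striated muscle, and Hnrnpu was not measured by cell type here. Whether the wild type mice carried the conditional allele or the Cre is not stated in the labels.

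Actin monomers bind ATP and assemble into filaments, which carry myosin in the sarcomere and build the cortex and stress fibres of all cells. Mammals have 6 nearly identical actin proteins, each from its own gene, and they differ mostly in the tissue that expresses them. In the mouse ventricle cardiac actin (Actc1) is the actin of the adult thin filament, whereas skeletal actin (Acta1) and smooth muscle actin (Acta2) are expressed by the heart muscle of the embryo and decline as it matures. Both serve as markers of the fetal gene program in stressed hearts, and Acta2 also marks vascular smooth muscle and activated fibroblasts. Several actin genes are targets of SRF, a transcription factor that binds the CArG box and is held in check by free actin through its MRTF cofactors.

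The authors' table gives 1 RPKM value per group (reads per kilobase of transcript and per unit of mapped reads), so levels carry no spread. Levels are compared between the isoforms as listed, but Actg1 and Actb share much sequence with other genes, as described below. The labels do not say whether animals shared a litter. The table also gives the authors' test of each row, and a row was called where the deposited adjusted p was below 0.05. Hnrnpu itself was listed at 15.2 RPKM in mutant and 32.7 RPKM in wild type ventricles, with p = 0.0613 and adjusted p = 0.438 in the authors' deposited table, without a call. In ventricle RNA, a change in the number of cells of a type and a change of RNA per cell cannot be told apart.

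Of the 6 actins, Acta1 rose, Actg1 fell and the other 4 did not pass the test. Across all 24454 rows tested, 3.51% were called, 2.03% higher and 1.48% lower in mutant. Acta1 gained most in proportion, and Actc1 stayed the most abundant actin in both genotypes.

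The DNA just upstream of an actin gene is shown for the 4 members with an entry in the RefSeq promoter table (GRCm38.p6), because these windows hold the boxes through which muscle actin genes are known to be read. All 4 genes lie on the minus strand, and the 210 bases before the annotated start are written 5′ to 3′ along the gene. Capitals mark matches to the CArG box, to the CArG box with 1 of its 6 inner bases changed to C or G, to the TEAD element CATTCC, and to TATAAA, on either strand. Actg2 and Actb were not shown.
Acta1, chr8:123894776-123894985: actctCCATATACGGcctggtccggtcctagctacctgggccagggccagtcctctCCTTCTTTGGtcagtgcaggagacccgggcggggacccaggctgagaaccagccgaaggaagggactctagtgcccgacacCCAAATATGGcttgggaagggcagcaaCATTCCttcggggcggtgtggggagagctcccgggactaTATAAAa
Actc1, chr2:114052876-114053085: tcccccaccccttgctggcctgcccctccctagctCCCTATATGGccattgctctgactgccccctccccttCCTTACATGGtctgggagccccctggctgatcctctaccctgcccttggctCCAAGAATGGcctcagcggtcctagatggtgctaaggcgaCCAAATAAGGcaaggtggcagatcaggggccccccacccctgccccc
Acta2, chr19:34255374-34255583: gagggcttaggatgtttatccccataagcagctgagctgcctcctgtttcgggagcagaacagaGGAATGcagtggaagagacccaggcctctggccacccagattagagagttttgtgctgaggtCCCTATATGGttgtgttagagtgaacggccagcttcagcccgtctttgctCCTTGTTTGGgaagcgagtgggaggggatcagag
Actg1, chr11:120348496-120348705: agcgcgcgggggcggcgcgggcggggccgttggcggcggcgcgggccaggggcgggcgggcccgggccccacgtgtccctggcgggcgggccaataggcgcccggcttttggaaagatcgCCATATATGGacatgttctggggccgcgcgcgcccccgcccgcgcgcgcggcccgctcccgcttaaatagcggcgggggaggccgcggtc

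In the whole window, from 250 bases before the start to 50 after it, an exact CArG box was found once each in Acta1, Actc1 and Actg1 and not in Acta2. It began 73 bases before the start in Acta1 (CCAAATATGG), 47 bases before it in Actc1 (CCAAATAAGG) and 90 bases before it in Actg1 (CCATATATGG). Of 32851 promoter windows of the same length, 1.63% held an exact CArG box. With 1 inner base changed to C or G, there were 3 further matches in Actc1, 2 in Acta1, 2 in Acta2 and 0 in Actg1, against 8.50% of all windows with at least 1. CATTCC was found once in Acta1 and once, on the other strand, in Acta2, and in 14.7% of all windows. TATAAA was found once in Acta1 and once in Actc1, where it lay after the annotated start, and in 13.6% of all windows. GGGCGG, the core of the GC box bound by Sp1, occurred 6 times in Actg1 and 2 times in Acta1, and 35.7% of all windows held it. The MEF2 motif was found in none of the 4 windows and in 3.19% of all windows. Of the actins with an exact CArG box, Acta1 rose, Actg1 fell and Actc1 had no call. The part of the box, exact or with 1 base changed, in the levels of the actins was not tested.

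Actc1, cardiac alpha actin (chromosome 2, 113873018 to 113879284, minus strand, mm9), was listed at 4530 RPKM in mutant and 2380 RPKM in wild type ventricles. It ranked 2 among all rows in mutant and 3 in wild type. The authors' deposited table gives it a fold of 1.90, p = 0.718 and adjusted p = 1, so this difference did not pass the test. An error of the log2 fold change can be read back from a deposited p by dividing the change by the normal deviate of that p, and this implied error was 2.57 for Actc1. The approximate 95% interval of its log2 fold change of 0.93 then ran from -4.10 to 5.96, which covers a large rise and a large fall of the main cardiac actin alike. The noncoding RNA A530058N18Rik spans Actc1 on the other strand, at 11.2 RPKM in mutant and 9.10 RPKM in wild type. Reads from any exonic bases it shares with Actc1 could not be told apart if strand was not used in counting. Whether the exons overlap was not checked.

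Acta1, skeletal alpha actin (chromosome 8, 126415669 to 126418651, minus strand, mm9), was listed at 827 RPKM in mutant and 15.9 RPKM in wild type ventricles. It moved up to rank 16 of all rows in mutant, against rank 1222 in wild type. The authors' deposited table gives it a 51.9-fold rise, a log2 fold change of 5.70 with p = 1.29e-09 and adjusted p = 4.15e-07. The approximate 95% interval ran from 3.86 to 7.54 on the log2 scale, with an implied error of 0.94. Among 20922 rows above 0 in both genotypes, 13 had a larger log2 rise. In the table's coordinates Acta1 lies within the span of Galnt2 on the plus strand, a row at 12.9 RPKM in mutant and 7.07 RPKM in wild type without a call. That row spans 4434884 bases, so its coordinates may not mark 1 gene.

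**Figure D1:**
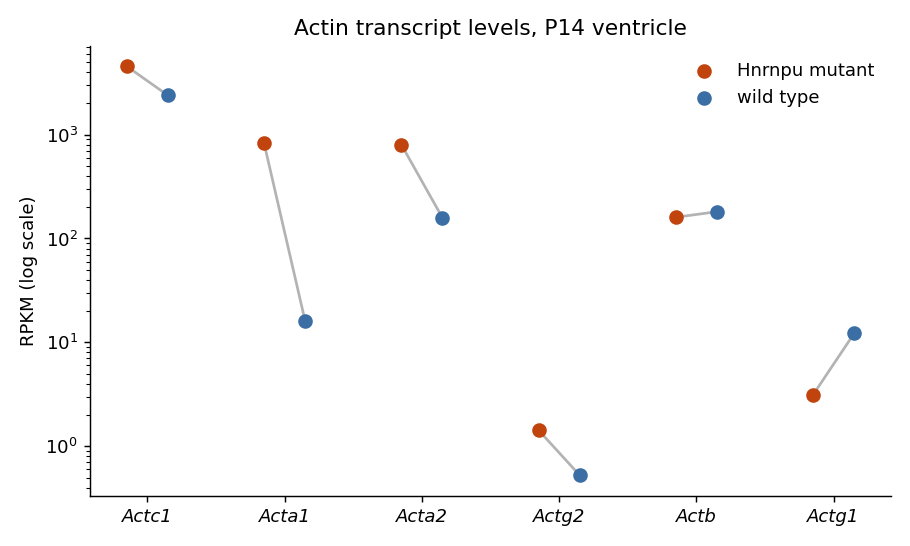
RPKM of the 6 actins (log scale), 1 deposited value per genotype and gene, with Hnrnpu mutant left of wild type and a grey line joining the values of a gene. Acta1 sits at 827 RPKM in mutant and 15.9 RPKM in wild type, the steepest line, and Actg1 is the clearest line in the other direction, at 3.12 and 12.2 RPKM.

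Acta2, smooth muscle alpha actin (chromosome 19, 34315580 to 34329826, minus strand, mm9), was listed at 802 RPKM in mutant and 158 RPKM in wild type ventricles. In mutant it stood next to Acta1 in the order of levels, at rank 17, and in wild type at rank 69. The authors' deposited table gives it a fold of 5.06 with p = 0.0113 and adjusted p = 0.171, so it did not pass the test over all rows. The log2 fold change of 2.34 had an approximate 95% interval from 0.53 to 4.15. Adjusted over rows with a mean of at least 1 RPKM, its p was 0.119.

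Actg2, the actin of gut smooth muscle (chromosome 6, 83462899 to 83486259, minus strand, mm9), was the least abundant member, at 1.43 RPKM in mutant and 0.527 RPKM in wild type. Its log2 fold change of 1.44 in the authors' deposited table had p = 0.0512 and adjusted p = 0.401. The approximate interval ran from -0.01 to 2.89. Acta2 was 561 times as abundant as Actg2 in mutant and 299.8 times in wild type ventricles.

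Actb, cytoplasmic beta actin (chromosome 5, 143664794 to 143668433, minus strand, mm9), was listed at 160 RPKM in mutant and 181 RPKM in wild type. Its log2 fold change was -0.18, with p = 0.807 and adjusted p = 1 in the authors' deposited table, and the approximate interval from -1.63 to 1.27 covers changes of more than 2-fold either way. Actb is widely used as a reference gene. Its rank was 102 in mutant and 55 in wild type.

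Actg1, cytoplasmic gamma actin (chromosome 11, 120207004 to 120209856, minus strand, mm9), was listed at 3.12 RPKM in mutant and 12.2 RPKM in wild type. It fell by 1.97 on the log2 scale, to 0.255 times wild type, with p = 0.000148 and adjusted p = 0.00791 in the authors' deposited table. Its approximate interval ran from -2.99 to -0.95, and its implied error of 0.52 was the smallest of the 6. Actb was thus 51.3 times as abundant as Actg1 in mutant and 14.8 times in wild type, as listed.

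**Figure D2:**
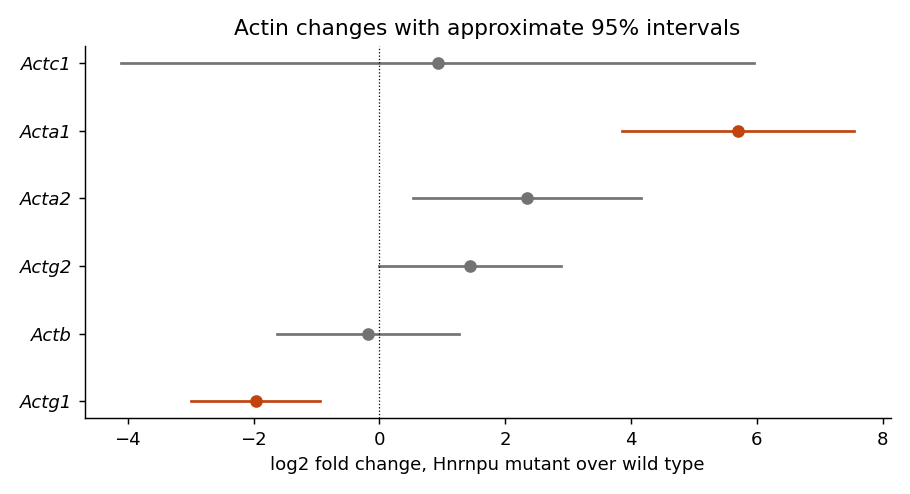
Deposited log2 fold change of each actin, Hnrnpu mutant over wild type (points), with the approximate 95% interval from the error implied by the deposited p (lines); called genes are in colour. The Acta1 interval, 3.86 to 7.54, and the Actg1 interval, -2.99 to -0.95, lie on opposite sides of 0, and the Actc1 interval is the widest.

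Much of the Actg1 transcript is sequence that other genes share. Each 50-base window of the longest-frame GENCODE M21 transcript of an actin was looked up in all other transcripts of that annotation. Of the Actg1 windows 43.3% were found in no other gene, and this share was 0% within the reading frame and 99.6% of the windows that reach outside it. Its closest copies were the pseudogenes Gm12715, which held 51.1% of the Actg1 windows, and Gm8399, which held 35.6%. Gm12715 was listed at 2.08 RPKM in mutant and 1.94 RPKM in wild type, and Gm8399 at 2.82 RPKM in mutant and 3.07 RPKM in wild type, neither with a call. Summed with the 5 pseudogene rows of the table that share more 50-base windows with it than with any other actin, Actg1 came to 8.36 RPKM in mutant and 17.6 RPKM in wild type, a log2 difference of -1.08 with no test. This sum was not weighted by length, so it gives the shorter pseudogenes more weight than their reads would. In GENCODE M21 the exons of Actg1 cover 2658 bases, those of Gm12715 1128 and those of Gm8399 1117. No source used here gives the read length or how reads with several matches were assigned. The part of these copies in the listed level of Actg1 beside the other actins, and in its fall, was not tested.

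The other actins were easier to tell apart at 50 bases. Actc1 and Actg2 were unique in 100% of windows, Acta2 in 99.6% and Acta1 in 97.8%, although the reading frames of any 2 members matched in 81.5% to 88.6% of aligned bases. Actc1 and Acta1, the striated pair, matched in 86.3%, and the closest pair, Actb and Actg1, in 88.6%. Actb was unique in 85.8% of its windows and shared 9.57% with Lrrc58 and 6.73% with Gm15725, a pseudogene listed at 80.7 RPKM in mutant and 82.0 RPKM in wild type. With 36-base windows the unique share was 96.5% for Acta1, 71.1% for Actb and 43.0% for Actg1.

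**Figure D3:**
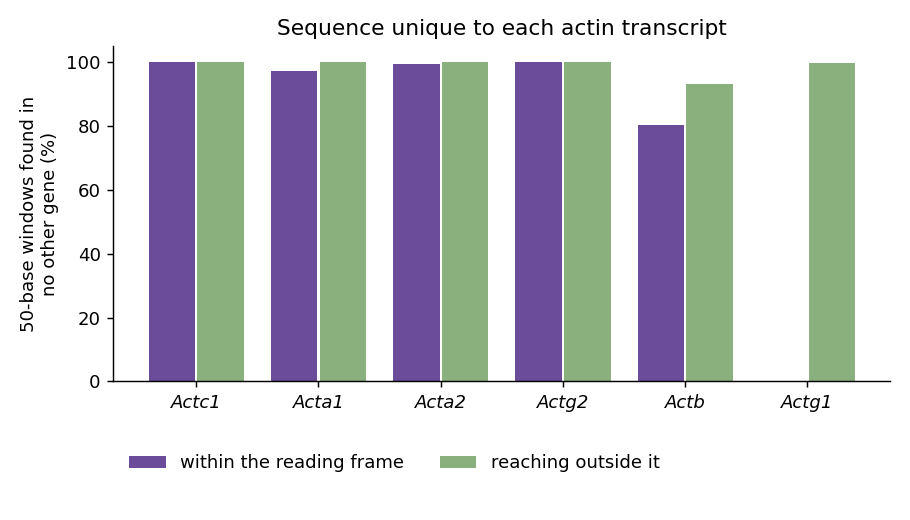
Share of 50-base windows of each actin transcript found in no other GENCODE M21 gene, for windows inside the reading frame (left bars) and windows that reach outside it (right bars). Actg1 has 0% inside the frame and 99.6% outside it, Actb 80.3% and 93.2%, and the 4 muscle actins are above 97% in both.

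The precision of the authors' test was lowest at both ends of the range of levels. This was read over tested rows above 0 in both genotypes whose deposited p lay between 0 and 1, since the other rows give no implied error. By the mean of both genotypes, the median implied error was 2.09 among 3168 rows up to 0.1 RPKM and 0.86 among 5259 rows of 0.1 to 1 RPKM, the class of Actg2. The median implied error was 0.53 among 8887 rows with a mean of 1 to 10 RPKM and also 0.53 among 2170 rows of 10 to 100 RPKM. It was 0.68 among 135 rows of 100 to 1000 RPKM and 1.37 among 10 rows above 1000 RPKM, the class of Actc1. The share of rows called was 0.600% up to 0.1 RPKM and 4.30% from 0.1 to 1 RPKM. It was 4.91% and 6.50% in the classes from 1 to 10 and 10 to 100 RPKM, 9.63% from 100 to 1000 RPKM and 20.0% above that (2 of 10 rows). Acta1 and Acta2, with means of 421 and 480 RPKM, had implied errors of 0.94 and 0.92. With errors this close, the deposited log2 fold change was 5.70 for Acta1, which passed the test, and 2.34 for Acta2, which did not.

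**Figure D4:**
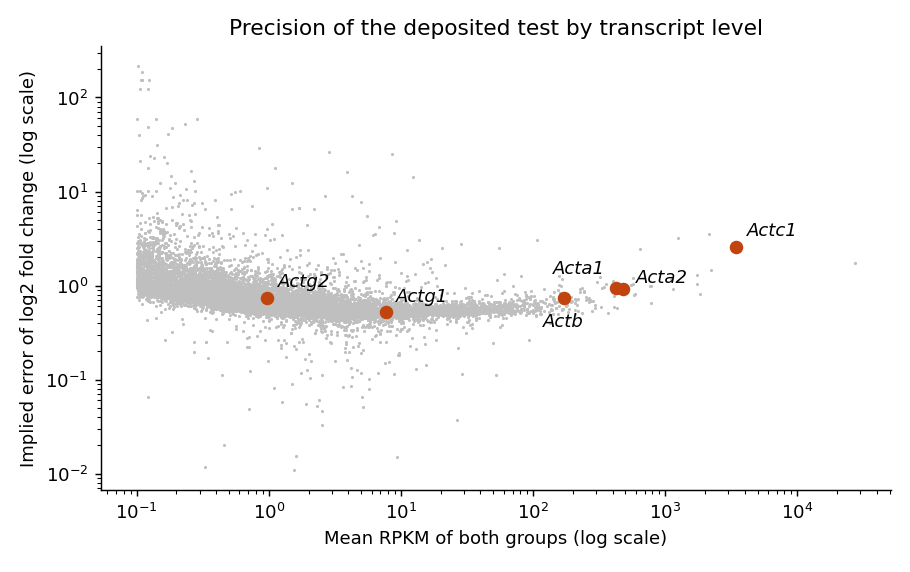
Implied error of the log2 fold change against the mean RPKM of both genotypes (both axes on a log scale) for rows with a mean above 0.1 RPKM, with the 6 actins in colour. Actg1 lies within the main band of rows with an error of 0.52, and Actc1 at the far right with 2.57.

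The 6 actins together summed to 6324 RPKM in mutant and 2748 RPKM in wild type ventricles, a ratio of 2.30. This was 4.78% of the RPKM of all protein coding rows in mutant and 2.51% in wild type. Actc1 made up 60.1% of the net difference, Acta1 22.7% and Acta2 18.0%, while the cytoplasmic pair together stood at 163 RPKM in mutant and 193 RPKM in wild type. These sums and the shares below have 1 value per genotype, so they were not tested.

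Actc1 held 71.6% of the actin sum in mutant and 86.6% in wild type. Acta1 held 13.1% in mutant and 0.579% in wild type, and Acta2 held 12.7% in mutant and 5.75% in wild type. Actb held 2.53% in mutant and 6.59% in wild type. Actg1 made up 0.0493% in mutant and 0.444% in wild type, and Actg2 0.0226% in mutant and 0.0192% in wild type. Cardiac actin thus had the largest share in both genotypes, and Acta1 and Acta2 had close shares in mutant. Their order there turned round when RPKM was weighted by exonic length, with Acta2 at 16.3% and Acta1 at 11.8% in mutant.

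**Figure D5:**
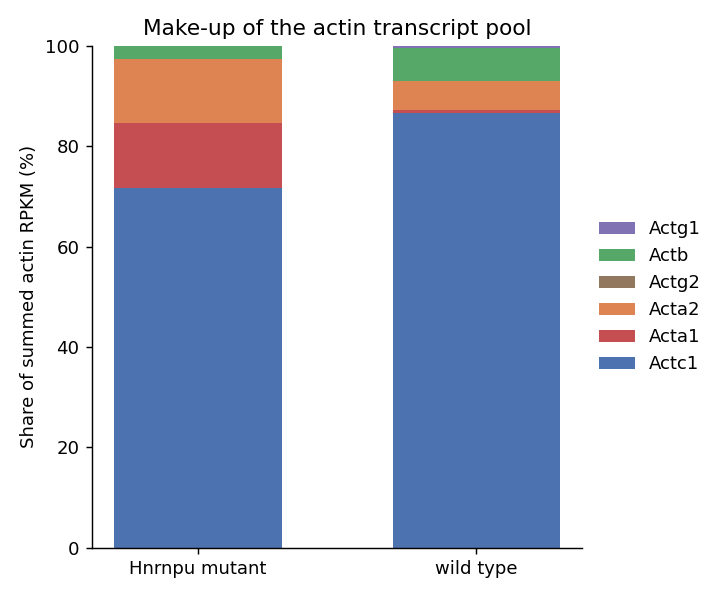
Share of each actin in the summed RPKM of the 6 actins, Hnrnpu mutant left and wild type right. Acta1 and Acta2 fill 13.1% and 12.7% of the mutant bar, against 0.579% and 5.75% of the wild type bar.

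Within the striated pair, Acta1 made up 15.4% in mutant and 0.664% in wild type, so that Actc1 exceeded it 5.48 times in mutant and 149.7 times in wild type. Acta2 was 0.970 times as abundant as Acta1 in mutant and 9.94 times in wild type. Against Actb, Acta2 stood at 5.01 times in mutant and 0.873 times in wild type. The 4 muscle actins held 97.4% of the family sum in mutant and 93.0% in wild type.

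The genes whose pair of levels lay closest to each actin were found by distance on the log2(RPKM + 1) scale over the 2 group values, among 10146 protein coding genes that averaged 1 RPKM or more over both genotypes. Closest to Acta1 were Fhl1, a LIM protein of muscle, at 274 RPKM in mutant and 13.0 RPKM in wild type, and Ctgf, a secreted matricellular protein, at 269 RPKM in mutant and 15.5 RPKM in wild type. Both were called higher in the authors' deposited table, but at distances of 1.61 and 1.62 they lay well below the mutant level of Acta1. Closest to Acta2 were Hspb7, a small heat shock protein of the heart, at 519 RPKM in mutant and 147 RPKM in wild type, and Ankrd1, an ankyrin repeat protein induced by stretch, at 1020 RPKM in mutant and 89.1 RPKM in wild type. Closest to Actc1 were Mb, which codes for myoglobin, and Tnnt2, cardiac troponin T, at distances of 1.39 and 1.51. Chchd10 and Tcap were closest to Actb, Scarf1 and BC005561 to Actg1, and Ang and Gxylt2 to Actg2.

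Genes that act on actin were read from 7 lists, beside a median log2 fold change of -0.03 over all tested rows above 0 in both genotypes. The folding list holds the chaperonin CCT, which folds new actin, prefoldin and the modifying enzymes. Of all tested rows, 3.51% were called and 12.6% had an unadjusted p under 0.05. None of the 17 folding members was called, 4 had an unadjusted p under 0.05, and the median was 0.53. All 8 CCT subunits, a group set apart outside the naming rule, were above wild type in the authors' deposited table, by 1.92-fold to 2.77-fold. The 4 members with an unadjusted p under 0.05 were all CCT subunits. Of the whole list 14 were above and 3 below wild type, beside 12928 above and 11526 below among all tested rows. Cct5 was at 34.2 RPKM in mutant and 12.3 RPKM in wild type (p = 0.00577, adjusted p = 0.111 in the authors' deposited table). Of 23 genes that bind monomers or turn filaments over, 0 were called, 3 had an unadjusted p under 0.05, and the median was 0.31. The lowest p was that of Scin, a severing protein, at 0.117 RPKM in mutant and 0.656 RPKM in wild type (p = 0.00184, adjusted p = 0.0511 in the authors' deposited table).

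Of 39 genes for nucleation, capping and filament length, Tmod4 fell and no other was called, and the median was 0.45. Tmod4, the tropomodulin of skeletal muscle that caps thin filaments, was listed at 0.213 RPKM in mutant and 1.23 RPKM in wild type, with adjusted p = 0.0317 in the authors' deposited table. Of 12 tropomyosins and troponins, which regulate the thin filament, Tnni2 fell and no other was called. Tnni2, the troponin I of fast skeletal muscle, was listed at 0.0633 RPKM in mutant and 1.03 RPKM in wild type, with adjusted p = 0.00118 in the authors' deposited table. The main cardiac partners of Actc1 are named here for their level after the values were seen, and none had a call. Tnnt2 stood at 1640 RPKM in mutant and 1840 RPKM in wild type, and Tnnc1 at 851 RPKM in mutant and 710 RPKM in wild type. Tpm1, alpha tropomyosin, stood at 705 RPKM in mutant and 579 RPKM in wild type, and Tnni3 at 386 RPKM in mutant and 578 RPKM in wild type.

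Of 32 genes that bundle, crosslink or anchor filaments, Synpo2l and Xirp1 rose and none fell, beside 3.51% called among all tested rows. In this list 26 members were above and 6 below wild type, 7 had an unadjusted p under 0.05, and the median was 0.53. Synpo2l, a Z-disc protein, was listed at 138 RPKM in mutant and 17.4 RPKM in wild type, with adjusted p = 0.00307 in the authors' deposited table. Xirp1, an actin-binding repeat protein of the intercalated disc, was listed at 40.0 RPKM in mutant and 11.1 RPKM in wild type, with adjusted p = 0.0497 in the authors' deposited table. Of 25 regulators around SRF and MRTF, Abra rose and Hopx fell, and the median was -0.13. Abra, also called STARS, a muscle protein that binds actin and activates SRF, was listed at 20.7 RPKM in mutant and 4.10 RPKM in wild type, with adjusted p = 0.00051 in the authors' deposited table. Hopx, a homeodomain protein that restrains SRF, was listed at 23.5 RPKM in mutant and 78.7 RPKM in wild type, with adjusted p = 0.04998 in the authors' deposited table. Both Xirp1 and Hopx lay just under the threshold. Of 18 actin-related and actin-like genes, 16 were tested and 0 were called, and 1 had an unadjusted p under 0.05. This was Actr1a, an actin-related subunit of dynactin, at 34.0 RPKM in mutant and 13.7 RPKM in wild type (adjusted p = 0.182 in the authors' deposited table).

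Marker genes were read beside the actins, in lists chosen with earlier results of these data known. Their counts are thus no independent test. Markers of ventricular heart muscle were abundant in both genotypes, with Tnnt2 and Myh6, the adult myosin heavy chain, at 1640 and 840 RPKM in mutant and at 1840 and 1660 RPKM in wild type. Of the 11 cardiomyocyte markers 0 were called and 1 had an unadjusted p under 0.05. In this list 1 member was above and 10 below wild type, and the median log2 fold change was -0.56. The list summed to 5957 RPKM in mutant and 7978 RPKM in wild type. Of 17 skeletal muscle markers, which bear on Acta1, Mybpc2 rose, Tnni2 fell, and Myod1 and Myog were listed at 0 in both genotypes. The list summed to 370 RPKM in mutant and 472 RPKM in wild type, most of it Ckm, muscle creatine kinase, which the heart also expresses, at 355 RPKM in mutant and 468 RPKM in wild type. The other 16 summed to 14.7 RPKM in mutant and 4.32 RPKM in wild type, most of it Mybpc2, at 13.6 RPKM in mutant and 2.31 RPKM in wild type. Their part in the level of Acta1 was not tested. Of 10 genes listed as atrial markers Nppa, Dkk3 and Myl1 rose and Gpr22 fell, and 5 were above and 5 below wild type. Myl1, which codes for a light chain of fast skeletal muscle, stood at 3.29 RPKM in mutant and 0.145 RPKM in wild type. The list summed to 4417 RPKM in mutant and 109 RPKM in wild type. Most of the mutant sum was Nppa, at 4370 RPKM in mutant and 58.2 RPKM in wild type. Without a call, Myl7 stood at 17.7 RPKM in mutant and 27.9 RPKM in wild type. Also without a call, Sln stood at 1.66 RPKM in mutant and 6.46 RPKM in wild type, and Myl4 at 6.85 and 4.28 RPKM.

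Markers of smooth muscle and activated fibroblasts, which also express Acta2, were read beside those of other cells, and the lists differed among themselves. Of 13 smooth muscle and pericyte markers Tagln, an actin-binding protein of smooth muscle, rose, at 42.6 RPKM in mutant and 9.76 RPKM in wild type, and the median of the list was 0.03. In this list 7 members were above and 6 below wild type, and 5 had an unadjusted p under 0.05. Of those 5, Tagln, Cnn1 and Des were above wild type and Smtn and Abcc9 below it. The list summed to 568 RPKM in mutant and 247 RPKM in wild type, and most of the mutant sum was Des. Des, desmin, which heart muscle also expresses, was listed at 404 RPKM in mutant and 69.5 RPKM in wild type without a call (adjusted p = 0.132 in the authors' deposited table). The gap between the genotypes was larger for Des alone than for the list sum. Rgs5, a pericyte gene, stood at 57.9 RPKM in mutant and 76.6 RPKM in wild type, also without a call. Of 12 markers of activated fibroblasts 8 rose and 0 fell, beside 2.03% called higher and 1.48% called lower among all tested rows. The list summed to 541 RPKM in mutant and 95.2 RPKM in wild type. The largest folds of this list were those of Thbs4, at 59.5 RPKM in mutant and 1.66 RPKM in wild type, and Cilp, at 62.3 and 2.84 RPKM. Its 2 most abundant members had no call, Postn at 155 RPKM in mutant and 36.5 RPKM in wild type and Loxl1 at 53.7 and 17.8 RPKM. Of 10 general fibroblast markers 0 were called and 3 had an unadjusted p under 0.05, and 7 were above and 3 below wild type. Their median was 0.80, and they summed to 993 RPKM in mutant and 786 RPKM in wild type. By the average of both genotypes the 2 most abundant were Dcn, at 250 RPKM in mutant and 278 RPKM in wild type, and Col3a1, at 185 RPKM in mutant and 146 RPKM in wild type. Of 9 macrophage markers Lyz2 and Lgals3 rose, 9 were above and 0 below wild type, and 4 had an unadjusted p under 0.05. Their median was 1.33, and they summed to 202 RPKM in mutant and 66.5 RPKM in wild type. The 8 endothelial markers gave 0 calls and 0 unadjusted p under 0.05, with 2 above and 6 below wild type. Among them Cdh5 stood at 31.8 RPKM in mutant and 42.8 RPKM in wild type. The part of any of these cell types in the level of Acta2 was not tested.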

How the data were processed

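Ventricle RNA of 4 mice was sequenced, and 1 table for the whole series was used. Per the file headers, the deposited RPKM values are 1 per group, and the deposited fold (ratio of mutant over control), its log2, p-value and adjusted p-value were made by the authors. Bowtie 0.12.9, DESeq (no version) and the build mm9 are named in the submitters' processing notes, without the step. No source used here gives the depth, read length, annotation, use of strand or treatment of reads with several matches. The table writes 0 as p for the 12360 rows at 0 in both groups, which were left out. The deposited fold and the RPKM ratio were within 0.971% of each other in the 10320 rows of at least 1 RPKM in both groups.

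Without values per animal, the authors' own test was the main result, called at adjusted p below 0.05. P-values rest on 2 animals a group. The implied error treats the deposited p as a two-sided normal test. Adjustment and implied error were tested on simulated data. Alternatives were a filter at a mean of 1 RPKM, a threshold of 0.1, 2 scalings, a pseudocount of 1, exonic length (GENCODE M21, GRCm38, lengths only) and the addition of pseudogene rows. The table of actin rows was taken by symbol; 6 list members matched through older symbols or synonyms in RefSeq.

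Of each pathway list the called members were named (up to 3 a direction by level), or the one with the lowest p. The CCT subunits and the cardiac partners of Actc1 were given outside this rule. Of each marker list the 2 most abundant and called members could be named, and some are given only as counts. A few other marker members were also named. The members and lists were chosen with earlier results of these data known. The relaxed CArG search and the sums with pseudogene rows were added after the data were seen. The planned protein comparison was not run, and reading frames were compared instead. Python 3.11.15, pandas 2.3.3, scipy 1.17.1 and Biopython 1.88 were used.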

Additional observations from a re-analysis of the deposited data

How the results depend on the processing

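The calls of Acta1 and Actg1 and the lack of a call for the other members that could be tested again held with adjustment over rows of at least 1 RPKM on average and at a threshold of 0.1; Actg2 lies below that filter. Scaling to the median ratio, which moved all rows by 0.09 on the log2 scale, or to the upper quartile changed no direction of a member. On the log2(RPKM + 1) scale Actg2 came to 0.67. Summed with its pseudogene rows without weighting by length, Actg1 came to -1.08 on the log2 scale. Weighted by exonic length, the share of Acta2 was 16.3% and that of Acta1 11.8% in mutant, which turns their order round. By that weighting the share of Actb was 3.97% in mutant and 10.2% in wild type, and that of Actg1 was 0.0768% in mutant and 0.684% in wild type. Among the lists, a threshold of 0.1 gave 1 call for monomer binding and turnover, 2 for tropomyosins and troponins, 5 for bundling, crosslinking and anchoring, 2 for fibroblasts and 5 for atrial markers. The filter at 1 RPKM gave 0 calls for nucleation, capping and filament length, 4 for bundling, crosslinking and anchoring, 1 for fibroblasts and 1 for skeletal muscle, with fewer rows tested. Under median-ratio scaling the median of tropomyosins and troponins was -0.038, against 0.050 as deposited. No paired analysis was possible because the table gives 1 value per group, and leaving out single animals was not possible for the same reason.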
